A study of Homo sapiens with 8 samples.

Results

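The regions described here are the m6A peaks that lie in the 5′ UTR or reach from it into the coding sequence. They are the peaks whose deposited label contains 5′ UTR and contains neither stop codon nor 3′ UTR, in the peak list of DF2 siRNA cells and in that of control cells. There were 4623 such peaks among 28949, of which 2230 of 13219 lay in the DF2 siRNA list and 2393 of 15730 in control. A peak labelled 5′ UTR without coding sequence is called a 5′ UTR only peak (996 in the DF2 siRNA list and 1169 in control). A peak with both labels is called a 5′ UTR plus coding peak (1234 in the DF2 siRNA list and 1224 in control).

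The cells were U2OS, an osteosarcoma cell line bought from a repository, treated with siRNA against YTHDF2 (named DF2 in the labels) or kept as control without that knock-down. Cytoplasmic RNA was broken into fragments near 100 nt and precipitated with an antibody against m6A. Each condition had 2 immunoprecipitates and 2 input libraries. Each condition has 1 peak list, which the labels tie to both of its immunoprecipitates, so no value per library was analysed and no test between conditions could be made. The labels number the DF2 siRNA samples 1 and 2 without saying whether these are separate siRNAs, and they do not say whether the pairs came from separate cultures. The lists hold no expression values, so the knock-down could not be checked. YTHDF2 had no 5′ UTR peak in either list, and its stop codon peak had a deposited fold enrichment of 52.3 in the DF2 siRNA list and 124 in control.

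N6-methyladenosine (m6A) is placed on mRNA mainly around the stop codon by the METTL3 and METTL14 methyltransferase, within short motifs that centre on GAC or AAC. YTHDF2 is a cytoplasmic reader that binds m6A and brings transcripts to deadenylation and decay. The 5′ UTR is the leader that the small ribosomal subunit scans from the cap to the start codon, and m6A within it has been linked to initiation that does not need the cap-binding complex. Where the first transcribed base is an adenosine, it often carries a related mark, m6Am, placed by PCIF1, which antibodies against m6A also bind. Peaks from such an antibody therefore do not separate m6A in the leader from m6Am at the cap, and the share of each was not tested.

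Between 51.9% and 58.9% of the peaks of each class and list whose gene had a RefSeq start covered such a start. The 30 bases around it are shown, because the first base bears on the mark at the cap, for the highest peaks found in both lists. The peaks chosen had a reference start within 50 bp of the peak's 5′ end in both lists, and up to 6 per class with the highest mean percentile of fold enrichment are shown. Sequences are from RefSeq, build GRCh38.p14, on the transcribed strand from 5′ to 3′. The capital marks the first base of the RefSeq transcript, taken here as the first transcribed base, with 9 bases before it. The first 6 are 5′ UTR only peaks and the other 6 are 5′ UTR plus coding peaks.
TGFB1 chr19:41353902-41353931, minus strand: ccggtccccGccgccgccgcccttcgcgcc
RABGEF1 chr7:66682157-66682186, plus strand: ggggaacccAgacctgccgagcgacgtggg
CELF1 chr11:47565519-47565548, minus strand: cggggcgggGctgccagctgcactaggcct
ANKH chr5:14871758-14871787, minus strand: ccgggccccAgagcgcttataatggagccg
GSK3B chr3:120094427-120094456, minus strand: gcgctcctcAcacagagcagctcctgaccc
DDX6 chr11:118791144-118791173, minus strand: ggagggggcAgaggagccgagttagctcag
RNF217 chr6:124962536-124962565, plus strand: cgggcggcgAtgggcgaggagcagagcacg
PCDH7 chr4:30720360-30720389, plus strand: ctcctccctGaatcgcgcacagcgctgcag
IRS2 chr13:109786563-109786592, minus strand: gcgcgatgtGttactcactgtgcggcgggg
C21orf58 chr21:46323850-46323879, minus strand: ccgagcggcAaaaagttcgcgctgctggtc
MOB3B chr9:27529794-27529823, minus strand: ccgcgagacAgtcgagccccggccggctgc
IRF2BP1 chr19:45886121-45886150, minus strand: gcctctgggGcagaagaaggaggtggaggc
Of these 12 starts, 7 began with A and 5 with G, and A came first in 4 of the 6 for 5′ UTR only peaks and in 3 of the 6 for 5′ UTR plus coding peaks. The A of RNF217 opens an ATG, so its RefSeq model may begin at a start codon and not at the cap, which was not tested.

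GGAC, the core of the commonest m6A motif, lay within the first 50 transcribed bases of 2 of the 12, where 18.9% of all RefSeq starts held it. These 2 stretches are shown with the motif in capitals, because the motif rather than the cap lies inside the window.
RABGEF1 chr7:66682187-66682215, plus strand: cgagcggtgacctGGACcacggcgcagac
IRS2 chr13:109786548-109786577, minus strand: cactgtgcggcggGGACcgcgacgagcccg
In RABGEF1, a regulator of endosomal RAB5, the motif began at base 35 of the transcript. In IRS2, an adaptor of the insulin receptor, it began at base 20.

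Peaks of the 5′ UTR made up 16.9% of the DF2 siRNA list (95% interval 16.2 to 17.5%) and 15.2% of the control list (14.7 to 15.8%). All such intervals cover counting error only, are exact binomial (Clopper-Pearson) for a share and Newcombe for a difference, and take each peak as 1 event. The class that reaches into the coding sequence held 9.34% of the DF2 siRNA list and 7.78% of the control list, a difference of 1.55 percentage points. The 5′ UTR only class held 7.53% of the DF2 siRNA list and 7.43% of the control list, a difference of 0.103 points. No interval is given for these differences, since the lists share most of their peaks and each condition has 1 list. The sequencing depth of the libraries is unknown and was not tested as a source of the difference.

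The classes differed from each other more than the lists did. In the authors' fold enrichment, a ratio per peak whose denominator the sources used here do not give, 5′ UTR only peaks had a median of 11.0 in the DF2 siRNA list (quartiles 8.23 and 15.7) and 11.1 in control (8.05 and 16.1). The 5′ UTR plus coding peaks had a median of 17 in the DF2 siRNA list (11.2 and 30.5) and 17.6 in control (11.4 and 35.1). Over all peaks the median came to 17.7 in the DF2 siRNA list and 20.8 in control. Peaks within the 5′ UTR thus sat low in the ranking of their list: 19.0% of them in the DF2 siRNA list and 16.6% in control were in its upper 50% by fold enrichment, against 47.7% and 42.8% of 5′ UTR plus coding peaks.

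Peaks confined to the 5′ UTR were also the narrowest. Their median exonic width was 400 nt in both lists, against 600 nt for 5′ UTR plus coding peaks, and 48.8% of them in the DF2 siRNA list and 49.4% in control were exactly 200 nt, the width of 1 bin. Of 5′ UTR plus coding peaks, 17.5% in the DF2 siRNA list and 18.5% in control were that narrow. Many crossed an exon junction. In the DF2 siRNA list 45.1% of 5′ UTR only peaks and 61.7% of 5′ UTR plus coding peaks had blocks in 2 or more exons, and in the control list 48.2% and 67.7% did. Over all peaks 42.0% in the DF2 siRNA list and 46.4% in control did, close to the 5′ UTR only class. Stop codon peaks gave 50.1% in the DF2 siRNA list and 56.4% in control. Deposited −log10 values under 2 were held by 33.2% of 5′ UTR only peaks and 19.3% of 5′ UTR plus coding peaks in the DF2 siRNA list, where all peaks gave 17.4%. The same shares were 33.8%, 19.1% and 15.2% in the control list. The file headers call this value an FDR in the DF2 siRNA list and a p-value in control, so the limit is not the same in both.

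**Figure D1:**
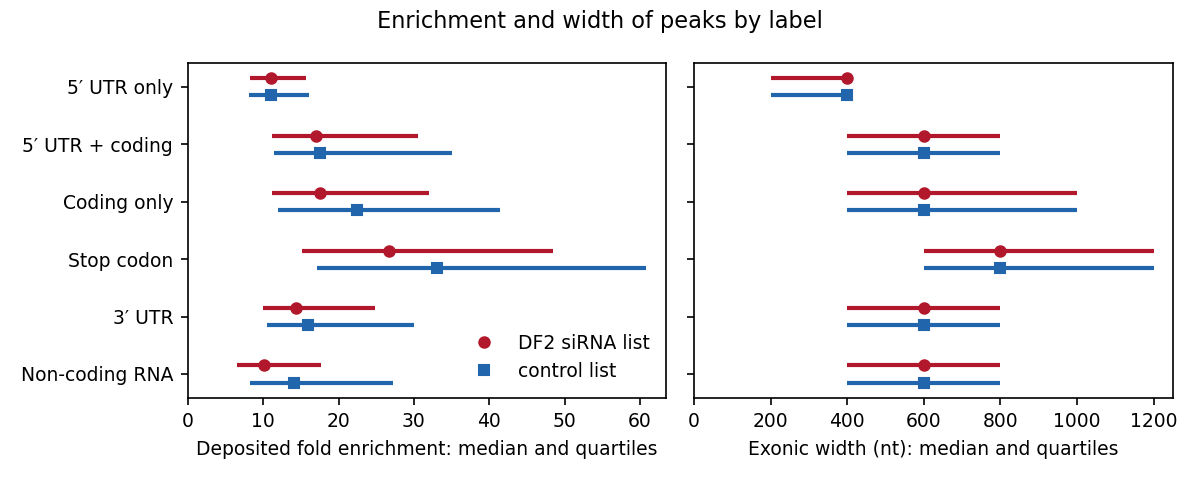
Median (symbol) and quartiles (line) of the authors' fold enrichment, left, and of exonic width in nt, right, for 6 peak labels in the DF2 siRNA list (circles) and the control list (squares). The 5′ UTR only peaks have medians of 11.0 and 11.1 and a width of 400 nt, below 5′ UTR plus coding peaks at 17 and 17.6 and 600 nt. The median and the upper quartile of width coincide for 5′ UTR only peaks.

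Whether a peak of one list was found again in the other was counted as at least 1 shared exonic base on the same strand. In the DF2 siRNA list 357 of 996 5′ UTR only peaks (35.8%) and 249 of 1234 5′ UTR plus coding peaks (20.2%) met no control peak, against 12.5% of all DF2 siRNA peaks. Among control peaks, 510 of 1169 5′ UTR only peaks (43.6%) and 255 of 1224 5′ UTR plus coding peaks (20.8%) met no DF2 siRNA peak, against 28.1% of all control peaks. Absence of a peak does not separate loss of methylation from a lower level of the transcript, which the lists do not give.

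Put as overlap, 64.2% of 5′ UTR only peaks (61.1 to 67.1%) and 79.8% of 5′ UTR plus coding peaks (77.5 to 82.0%) of the DF2 siRNA list were overlapped, a difference of -15.7 points (-19.4 to -11.9). Control peaks gave 56.4% (53.5 to 59.2%) and 79.2% (76.8 to 81.4%), a difference of -22.8 points (-26.4 to -19.1). Both classes together were overlapped less than all other peaks, by -17.6 points in the DF2 siRNA list (72.8% against 90.4%, interval -19.6 to -15.7) and by -4.52 points in the control list (68.0% against 72.6%, interval -6.56 to -2.53). The control difference was not stable: it came to -1.08 points with lists of equal length (interval -3.09 to 0.825, which includes 0), and its sign turned to 12.5 points among peaks of at most 400 nt (9.54 to 15.5). The DF2 siRNA difference kept its sign, with -21.3 points at equal length (-23.4 to -19.3) and -16.9 points among peaks of at most 400 nt (-19.8 to -14.0).

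The position of the 5′ UTR classes among the labels was not the same in the lists. In the DF2 siRNA list both classes were overlapped less than coding only peaks (89.0%), stop codon peaks (93.3%), 3′ UTR peaks (87.3%) and non-coding RNA peaks (88.7%), with the intervals of all 8 differences below 0. The 246 peaks without a label were overlapped at 70.3% there, between 5′ UTR only (64.2%) and 5′ UTR plus coding peaks (79.8%). In control the 378 peaks without a label had 41.8%, below both classes. Control 5′ UTR plus coding peaks were overlapped more than coding only peaks (75.8%), 3′ UTR peaks (64%) and non-coding RNA peaks (52.8%) and less than stop codon peaks (83.6%). The 5′ UTR only peaks of the control list were overlapped less than coding only, stop codon and 3′ UTR peaks and 3.58 points more than non-coding RNA peaks (interval 0.0253 to 7.12). By these counts, 5′ UTR peaks were 606 of the 1656 DF2 siRNA peaks without a counterpart (36.6%, interval 34.3 to 39.0%) and 1624 of the 11563 with one (14%). Of control peaks they were 765 of the 4426 peaks without a counterpart (17.3%, interval 16.2 to 18.4%) and 1628 of the 11304 with one (14.4%).

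**Figure D2:**
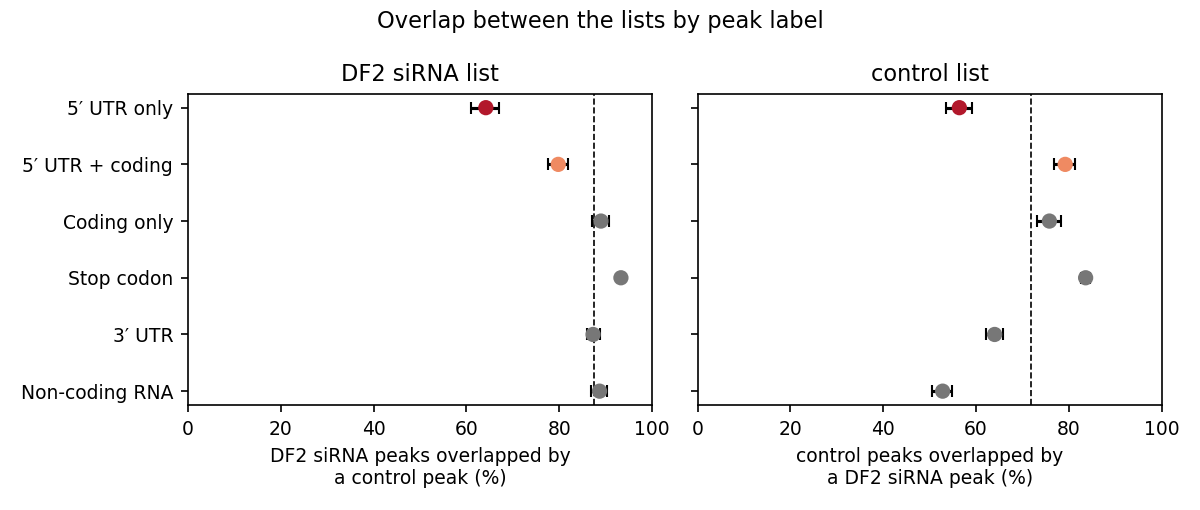
Share of peaks, in percent, that share at least 1 base with a peak of the other list, for DF2 siRNA peaks on the left and control peaks on the right, by label, with exact 95% intervals that cover counting error only. The dashed line is the share over all peaks of the list (87.5% for DF2 siRNA and 71.9% for control). Both 5′ UTR classes lie left of the other 4 labels in the DF2 siRNA list, and 5′ UTR plus coding peaks lie right of the line in the control list. Peaks without a label are not drawn.

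Overlap rose with the deposited score, a whole number of unstated meaning, so peaks were also compared within quintiles of their list by that score. In quintile 1, the lowest, 57.3% of 5′ UTR only peaks and 62.6% of 5′ UTR plus coding peaks of the DF2 siRNA list were overlapped, against 78.9% of other peaks. In quintile 2 the shares were 65.0%, 69.8% and 88.9%, and in quintile 3 they were 65.5%, 78.6% and 91.0%. For 5′ UTR only peaks the difference from other peaks lay between -25.4 points in quintile 3 and -21.6 points in quintile 1 over quintiles 1 to 4, each with its interval below 0. For 5′ UTR plus coding peaks it lay between -19.1 points in quintile 2 and -4.32 points in quintile 4 over the same quintiles. In quintile 5 all 33 5′ UTR only peaks were overlapped, and so were 93.9% of 5′ UTR plus coding peaks and 98.5% of other peaks.

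Among control peaks the same comparison showed no such gap. In quintile 1, 29.0% of 5′ UTR only peaks and 39.6% of 5′ UTR plus coding peaks were overlapped, against 25.2% of other peaks. For 5′ UTR only peaks the interval of the difference from other peaks included 0 in all 5 quintiles, with values from -4.66 to 3.77 points. For 5′ UTR plus coding peaks it lay above 0 in quintile 1 (14.3 points, interval 6.53 to 22.7) and in quintile 4 (3.57 points, interval 0.0393 to 6.11) and included 0 in the others. The low overlap of control 5′ UTR only peaks over the whole list thus went together with their low scores, whereas that of DF2 siRNA 5′ UTR peaks was also seen at like scores. Ranked by fold enrichment, DF2 siRNA quintile 1 gave 54.5% of 5′ UTR only and 55.3% of 5′ UTR plus coding peaks, against 74.7% of others. The gap was small in quintile 4 (96.2% and 97.5% against 99.2%). Control 5′ UTR only peaks were then overlapped more than others in quintiles 1 to 3, with 30.9%, 65.0% and 86.3% against 23.9%, 55.0% and 79.6%. Lists of equal length were also cut into new quintiles of score. There both classes together differed from other peaks by -26.6 points in quintile 1 (interval -31.2 to -21.7) and -26.5 points in quintile 2 of the DF2 siRNA list. The gap narrowed to -18.9 points in quintile 3, -9.12 points in quintile 4 and -3.70 points in quintile 5, each with its interval below 0. Control peaks then differed by 8.89 points in quintile 1 (3.85 to 13.7), 0.188 points in quintile 2, 4.54 points in quintile 3 (0.852 to 7.61), -0.219 points in quintile 4 and -1.31 points in quintile 5, and the intervals for quintiles 2, 4 and 5 include 0.

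**Figure D3:**
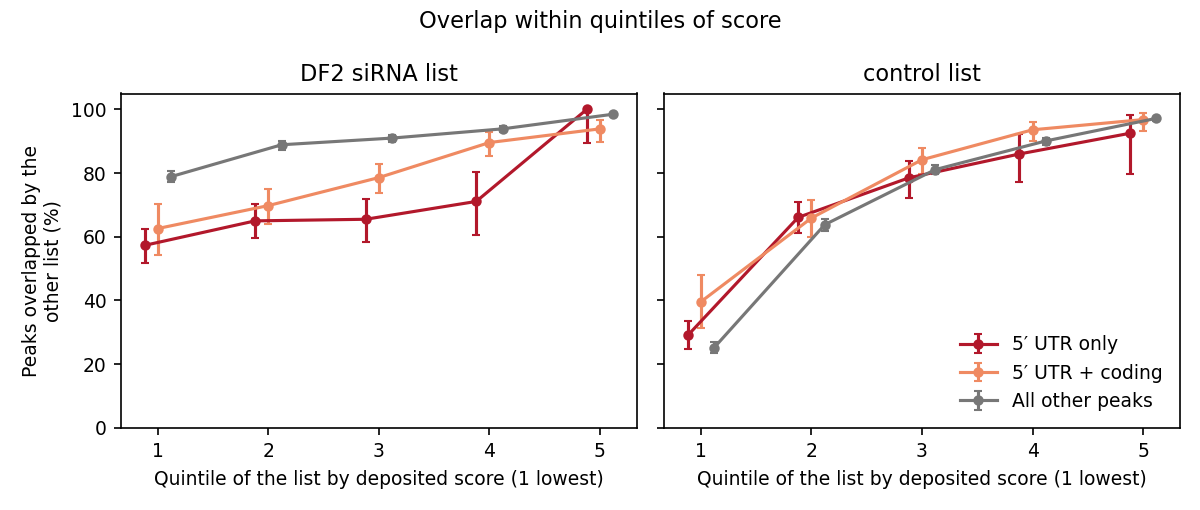
Share of peaks overlapped by the other list, in percent, within quintiles of each list by deposited score (1 is the lowest), for 5′ UTR only peaks, 5′ UTR plus coding peaks and all other peaks, with exact 95% intervals that cover counting error only. In the DF2 siRNA list (left) both 5′ UTR classes lie below other peaks in quintiles 1 to 4, for example 65.0% and 69.8% against 88.9% in quintile 2. In the control list (right) the shares are 29.0%, 39.6% and 25.2% in quintile 1 and 66.1%, 65.9% and 63.8% in quintile 2.

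Among peaks of exactly 200 nt, the classes came close to each other in the DF2 siRNA list. There 49.0% of 486 5′ UTR only peaks and 50.5% of 216 5′ UTR plus coding peaks were overlapped, against 64.3% of 759 other peaks. In the control list 43.5% of 577 5′ UTR only peaks and 54.4% of 226 5′ UTR plus coding peaks of that width were overlapped, against 28.0% of 935 other peaks. At equal width the 5′ UTR peaks were thus overlapped less often than other peaks in the DF2 siRNA list and more often in control. The median score of 200 nt peaks was 23.0 and 42.0 for the 5′ UTR classes against 14 for others in the DF2 siRNA list, and 30 and 59.0 against 16.0 in the control list.

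Where a peak was found again, its place was mostly the same. Of the 639 overlapped 5′ UTR only peaks of the DF2 siRNA list, 548 (85.8%) had a 5′ UTR only peak as their main partner, 56 a 5′ UTR plus coding peak and 30 a stop codon peak. Of the 985 overlapped 5′ UTR plus coding peaks, 791 (80.3%) had a partner of their own class, 97 a stop codon peak and 35 a coding only peak. The control list gave 543 of 659 (82.4%) and 795 of 969 (82.0%) with a partner of the same class. The exonic blocks were identical in both lists for 827 peaks, 348 of them 5′ UTR only and 479 5′ UTR plus coding. That is 37.1% of the 5′ UTR peaks in the DF2 siRNA list and 34.6% of those in the control list, where all peaks gave 35.1% and 29.5%.

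Most 5′ UTR peaks without a counterpart in the DF2 siRNA list lay in genes that had some control peak. This held for 251 of the 357 5′ UTR only peaks (70.3%) and 168 of the 249 5′ UTR plus coding peaks (67.5%), against 61.0% of all DF2 siRNA peaks without a counterpart. Among control peaks it held for 286 of 510 (56.1%) and 121 of 255 (47.5%), against 47.3% of all. Over all genes of the DF2 siRNA list 7.08% had no control peak, and over those of the control list 20.3% had no DF2 siRNA peak. The other list had a 5′ UTR peak elsewhere in the same gene for 34 of the 357 and 12 of the 249 in the DF2 siRNA list. It did so for 49 of the 510 and 15 of the 255 in control. Over all peaks without a counterpart the same held for 191 of 1656 in the DF2 siRNA list and 545 of 4426 in control.

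Positions were compared with RefSeq transcript starts, which matched the gene of 83.1% of 5′ UTR only and 81.7% of 5′ UTR plus coding peaks in the DF2 siRNA list and 81.6% and 82.4% in the control list. Of the DF2 siRNA peaks with such a start, 58.9% of 5′ UTR only and 51.9% of 5′ UTR plus coding peaks covered a start, against 6.79% of stop codon peaks and 0.685% of coding only peaks. In the control list the shares were 56.6% and 54.2%, against 6.88% and 0.742%. The 5′ end of the peak lay within 50 bp of the nearest start in 31.0% of 5′ UTR only and 36.0% of 5′ UTR plus coding peaks of the DF2 siRNA list, and in 25.1% and 32.0% in the control list.

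The classes differed in the side on which they began. Of 5′ UTR only peaks, 65.2% in the DF2 siRNA list and 70.2% in control began upstream of the nearest RefSeq start, against 48.9% and 49.0% of 5′ UTR plus coding peaks. Starts over 1000 bp upstream of the peak's 5′ end, introns included, were seen for 6.88% of 5′ UTR only and 15.6% of 5′ UTR plus coding peaks in the DF2 siRNA list. Control peaks gave 8.18% for 5′ UTR only and 16.5% for 5′ UTR plus coding. These labels follow the authors' transcript models, which can hold leaders that the RefSeq starts used here lack. In ZFHX3, a large zinc finger transcription factor, a peak labelled 5′ UTR plus coding began 87941 bp downstream of its RefSeq start.

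**Figure D4:**
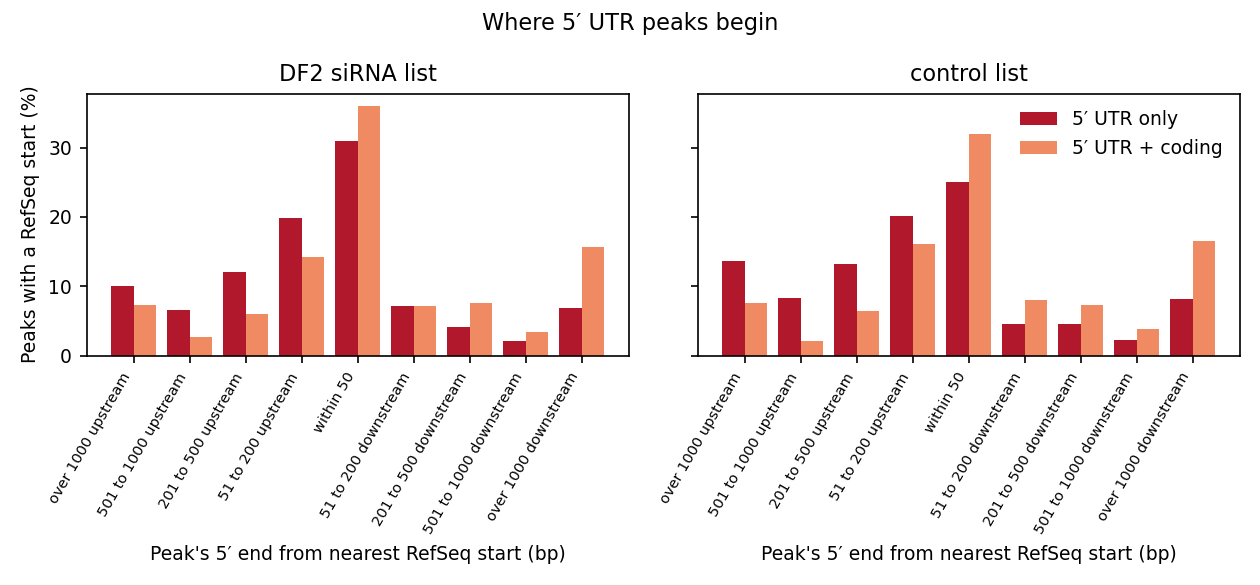
Distribution of the distance from the nearest RefSeq start to the 5′ end of the peak, in bins of genomic bp, as percent of peaks with a RefSeq start, for 5′ UTR only (dark) and 5′ UTR plus coding (light) peaks of the DF2 siRNA list (left) and the control list (right). The bin within 50 bp is the highest for both classes in both lists, from 25.1% to 36.0%.

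The first transcribed base was an adenosine more often at starts inside a 5′ UTR peak than at starts of the same list's genes that no peak covered. Of 1118 starts inside a 5′ UTR peak of the DF2 siRNA list, 53.9% had A (51 to 56.9%), against 45.2% of 7687 starts in no peak, a difference of 8.70 points (5.57 to 11.8). Of 1224 starts inside a 5′ UTR peak of the control list, 56.5% had A (53.7 to 59.3%), against 44.9% of 8503, a difference of 11.6 points (8.65 to 14.6). The lists share most of their genes and starts, so they are not independent of each other. G was lower inside peaks, with 35.1% against 41.4% in the DF2 siRNA list and 33.1% against 41.5% in the control list.

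This held in genes with 1 RefSeq start, where A came first at 56.0% of starts in a 5′ UTR peak against 43.6% of starts in no peak for the DF2 siRNA list, and at 58.8% against 43.4% for the control list. In genes that had starts of both kinds, A came first at 54.1% of 390 starts in a 5′ UTR peak against 49.1% of 560 in no peak in the DF2 siRNA list, with an interval of the difference of -1.46 to 11.4 points that includes 0. Control gave 58.2% of 419 against 48.8% of 625 (3.26 to 15.5 points). These intervals take each start as independent and leave out that the starts share genes. The pattern was not particular to peaks labelled 5′ UTR. Starts inside a peak with another label had A in 53.1% of 461 cases in the DF2 siRNA list and in 53.1% of 561 cases in the control list, and the difference of 5′ UTR peaks from these had intervals that include 0 (-4.59 to 6.20 and -1.54 to 8.39 points). Over all 35116 RefSeq starts 44.4% had A, and over those of protein-coding genes 50.1% had A.

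The classes did not differ detectably in this base. A came first at 52.5% of starts in 5′ UTR only and 55.3% of starts in 5′ UTR plus coding peaks of the DF2 siRNA list, a difference of -2.79 points (-8.60 to 3.05), and at 56.4% and 56.6% in the control list, a difference of -0.185 points (-5.72 to 5.35). Starts in peaks without a counterpart had A in 52.0% of 323 cases in the DF2 siRNA list and 60.3% of 398 cases in the control list. Starts in overlapped peaks had A in 54.7% of cases in both lists.

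**Figure D5:**
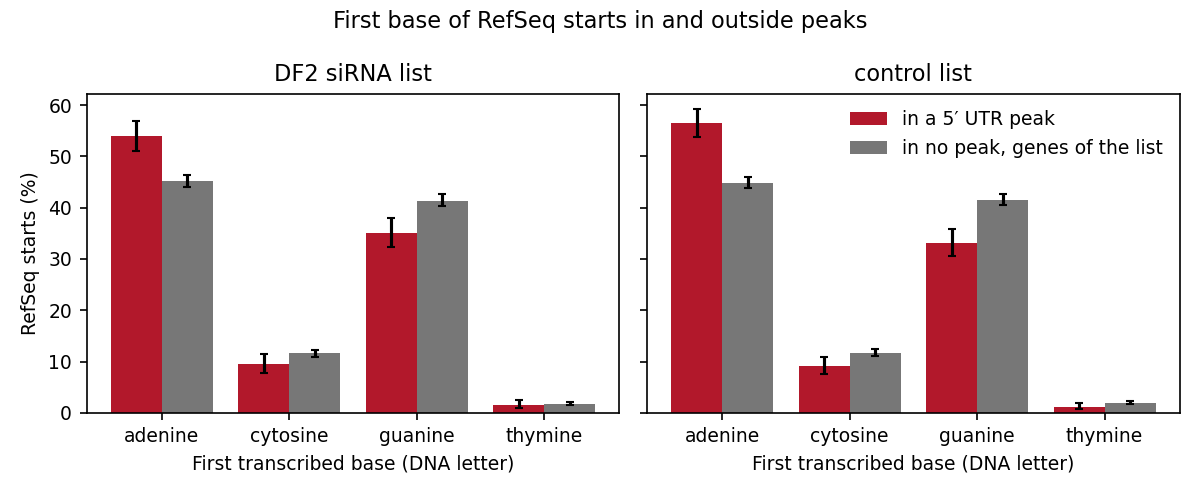
Share of RefSeq starts, in percent, by first transcribed base, for starts inside a 5′ UTR peak and for starts in no peak within genes of the same list, in the DF2 siRNA list (left) and the control list (right), with exact 95% intervals that cover counting error only. Adenine is at 53.9% against 45.2% on the left and 56.5% against 44.9% on the right, and guanine is lower inside peaks.

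The m6A motif core GGAC was searched on the transcribed strand in the first 50 bases. It was present at 24.4% of starts in a 5′ UTR peak against 19.1% of starts in no peak for the DF2 siRNA list (difference 5.33 points, interval 2.75 to 8.08), and at 23.7% against 19.2% for the control list (4.51 points, 2.06 to 7.11). In genes that had starts of both kinds the GGAC difference was 3.58 points in the DF2 siRNA list (-1.53 to 8.86) and 4.67 points in control (-0.283 to 9.79). Set against starts in peaks with another label it was 2.94 points in the DF2 siRNA list (-1.72 to 7.31) and 2.84 points in control (-1.40 to 6.84), so all 4 of these intervals include 0. The reverse complement GTCC, a string of the same base composition with G and C counted together, was less common in 5′ UTR peaks than at starts in no peak, with 16.9% in against 19.4% outside 5′ UTR peaks for the DF2 siRNA list and 16.4% against 19.5% for control. In genes that had starts of both kinds GTCC was not lower in DF2 siRNA peaks, at 17.9% against 14.5% (difference 3.48 points, -1.22 to 8.39), and was at 16.5% on both sides in control. Over all RefSeq starts 18.9% held GGAC and 17.6% held GTCC. GC content of these 50 bases averaged 67.0% in and 65.4% outside 5′ UTR peaks for the DF2 siRNA list, and 64.2% and 65.3% for the control list. The longer GGACT, which contains GGAC, was at 5.81% in against 4.57% outside 5′ UTR peaks for the DF2 siRNA list, with an interval of the difference of -0.0728 to 2.84 points that includes 0, and at 6.05% against 4.66% for control (0.0978 to 2.93 points). AAC was at 28.9% against 27.9% for the DF2 siRNA list (-1.79 to 3.89 points) and at 31.4% against 28.1% for control (0.585 to 6.12 points). Over all RefSeq starts 35.7% held AAC. In genes that had starts of both kinds both strings were less common in 5′ UTR peaks. There AAC differed by -3.87 points in the DF2 siRNA list (-9.82 to 2.22) and -5.39 points in control (-11.2 to 0.573). GGACT differed by -0.664 points (-3.47 to 2.40) and -1.23 points (-4.11 to 1.89), and each of these intervals includes 0.

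Genes with a 5′ UTR peak numbered 2104 of the 8556 genes with a peak in the DF2 siRNA list (24.6%) and 2241 of 9971 in control (22.5%). The 1405 genes with one in both lists were 66.8% of those of the DF2 siRNA list and 62.7% of those of the control list. Of the 2940 genes with one in either list, 47.8% had it in both, 23.8% in the DF2 siRNA list only and 28.4% in the control list only. Part of these transcripts also had a peak at the stop codon. Of genes with a 5′ UTR only peak, 48.4% in the DF2 siRNA list and 50% in control also had a stop codon peak, close to the 48.3% and 50.8% of genes with a 5′ UTR plus coding peak. Over all genes with a peak, which include those listed for a stop codon peak alone, 59.2% in the DF2 siRNA list and 58% in control had a stop codon peak.

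The highest 5′ UTR only peaks by fold enrichment lay in genes of several kinds. TGFB1, a secreted cytokine, had 181 in the DF2 siRNA list (chr19:41353112-41353911, minus strand, hg38) and 62.4 in control, with scores of 1788 in the DF2 siRNA list and 1874 in control, beginning 11 bp from the start printed above. U2AF2, the large subunit of the splicing factor that recognises the polypyrimidine tract, had 110 in the DF2 siRNA list and 92.7 in control (chr19:55654146-55654945, plus strand, the same interval in both). DYRK1A, a protein kinase, had 112 in the DF2 siRNA list and 28.8 in control. All 3 were found in both lists, and only U2AF2 kept the same blocks.

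SYNCRIP, an RNA-binding protein of the hnRNP family, had 90.8 in the DF2 siRNA list and 32.4 in control, both over 400 nt in 2 exons. MGAT1, which starts the processing of N-glycans in the Golgi, had 85.8 in the DF2 siRNA list and 54.0 in control. NCAPD2, a condensin subunit, had 81.5 in the DF2 siRNA list and 62.4 in control. The others of the first 8 in the DF2 siRNA list were FBRS (124 in the DF2 siRNA list and 140 in control) and the zinc finger gene ZNF831 (93.7 in the DF2 siRNA list and 78.2 in control). Thus 7 of these 8 had the higher value in the list that ranked them, as their choice makes likely.

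Chosen from the control list, the leading genes also had 5′ UTR only peaks with a counterpart. The transcription factor RUNX1 had 37.9 in the DF2 siRNA list and 112 in control. TULP4 had 51.9 in the DF2 siRNA list and 108 in control, and the tripartite motif gene TRIM69 had 26.7 in the DF2 siRNA list and 96.5 in control. FANCC, of the Fanconi anaemia core complex, had 110 in the control list, and the DF2 siRNA peak that met it there, without a label, had 29.6. FBRS and U2AF2 led in both lists, and SLC20A2, a phosphate transporter, and ZNF668 (17.3 in the DF2 siRNA list and 84.5 in control) complete the group.

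BMP6, a secreted ligand of the BMP family, held the highest value of any 5′ UTR peak in the DF2 siRNA list. Its 5′ UTR plus coding peak at chr6:7726797-7727196 (plus strand) covered the same 400 nt in both lists, with 216 and a score of 3096 in the DF2 siRNA list and 118 and 4927 in control. RARA, a nuclear receptor for retinoic acid, had 172 in the DF2 siRNA list and 99.2 in control over identical blocks of 600 nt in 3 exons (chr17:40326543-40341438, plus strand). ST3GAL2, a sialyltransferase, had 144 in the DF2 siRNA list and 128 in control, and RNF217, a RING ubiquitin ligase, had 137 in the DF2 siRNA list and 117 in control.

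IRS2 had 134 in the DF2 siRNA list and 75 in control over the same 1600 nt. SLMAP, a tail-anchored membrane protein, had 130 in the DF2 siRNA list and 90.9 in control. In NPY4R, a receptor for pancreatic polypeptide, the value was 170 over 400 nt in the DF2 siRNA list and 213 over 600 nt in control. EPPK1, a cytolinker of intermediate filaments, had 173 in the DF2 siRNA list, and the control peak that met it was labelled coding only and had 106.

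Among the highest 5′ UTR plus coding peaks of the control list, GOLGA5, a golgin, had 45.5 over 600 nt in the DF2 siRNA list and 197 over 1200 nt in control. PTCH1, the receptor for Hedgehog ligands, had 53.0 in the DF2 siRNA list and 155 in control. PLXNA2, a semaphorin receptor, had 67.2 in the DF2 siRNA list and 127 in control over identical blocks. SARS, the seryl-tRNA synthetase (160), and ANKRD50 (132) were each met in the DF2 siRNA list by a coding only peak, with 57.7 and 25.6. PNMA1 had 103 in the DF2 siRNA list and 127 in control. Every member named so far from the highest 8 per class and list was met by a peak of the other list.

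By score, YBX1, a cold-shock RNA-binding protein, came first in the DF2 siRNA list with 4217, and its 200 nt peak (chr1:42682427-42682626, plus strand), 9 bp from its RefSeq start, was identical in the control list, where it had 5804. Its fold enrichment reached 70.2 in the DF2 siRNA list and 40.2 in control. Of control peaks that of TOB1, an antiproliferative protein that recruits the CCR4-NOT deadenylase, came first with 6985, and it had 2027 in the DF2 siRNA list. The kinase WNK1 had 3070 in the DF2 siRNA list and 5628 in control. HNRNPA0 (2065 in the DF2 siRNA list and 2504 in control) and the beta-tubulin gene TUBB complete the 5 highest of each list, and TUBB (6060 in the control list) was met by a stop codon peak with 2803.

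Peaks without a counterpart were lower. The median fold enrichment of 5′ UTR only peaks was 9.87 without and 12.3 with a counterpart in the DF2 siRNA list, and 8.44 and 14 in the control list. In the DF2 siRNA list the highest 5′ UTR only peak without a control counterpart was that of TIMP2, an inhibitor of metalloproteinases, with 43.2 over 200 nt at chr17:78925188-78925387 (minus strand). FBXL19, with an F-box and a CpG-binding zinc finger, followed with 29.4, and its peak began at the RefSeq start. The phosphatase PTPN12 (23.6), the transcription factor SIM2 (23.3) and the Wnt signal transducer DVL3 (22.2, beginning 11 bp from its start) completed the 5.

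Of 5′ UTR plus coding peaks without a control counterpart, that of WDR26 had 35.9 and that of NUS1, a subunit of the enzyme that makes dolichol precursors, had 35.2. ASPHD1 had 28.0, the golgin GOLGA4 had 27.8 and YBX3, a relative of YBX1, had 24.4 with a score of 649, beginning 11 bp from its start. In the control list, 5′ UTR only peaks without a DF2 siRNA counterpart were led by TTC3 (53.1), FLRT1 (37.2), the ubiquitin ligase LRSAM1 (35.1), the apoptotic protease CASP8 (30.6) and SETD5 (25.2, beginning at its start). Those of the 5′ UTR plus coding class were led by MCF2L2 with 71.1. ZNF92 (43.1), RMDN2 (42.7), the aminopeptidase ERAP2 (35.0) and the interferon-induced gene IFI44 (34.0) followed.

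Some genes carried 3 or more 5′ UTR peaks, 11 in the DF2 siRNA list and 13 in control. DNASE1 had the most, 4 in the DF2 siRNA list and 5 in control, with fold enrichments of 7.36 to 18.0 in the DF2 siRNA list and 5.10 to 36.4 in control. RARA had 3 in both lists, and each was met: beside the peak named above, a 5′ UTR only peak beginning 12 bp from a RefSeq start had 15 in the DF2 siRNA list and 9.73 in control, and a second 5′ UTR plus coding peak had 8.70 in the DF2 siRNA list and 8.64 in control. TFAP2A, a transcription factor of development, had 3 in both lists with 7.44 to 16.6 in the DF2 siRNA list and 7.83 to 13.3 in the control list. MGAT1 and SLC20A2 had peaks that were split in the DF2 siRNA list where the control list had 1 wider peak. The 3 control peaks of BCS1L, a mitochondrial chaperone, met no DF2 siRNA peak.

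The functional gene lists were read by their counts against the 27.8% of all 10577 genes with a peak that had a 5′ UTR peak. These 10577 include genes with non-coding RNA peaks (1036 in the DF2 siRNA list and 1674 in control). No share over protein-coding genes alone is given here. Every list other than the markers of other cell types lay above 27.8%, from 33.3% for ribosomal protein genes, so a share above it is not particular to any list. Transcripts of deadenylation and mRNA decay had one in 11 of 19 genes, the highest share. Cell cycle regulators had one in 11 of 21, chromatin regulators in 22 of 46, osteoblast and matrix genes in 8 of 17 and immediate early and growth-related factors in 15 of 33. Translation factors had one in 9 of 21, heat shock genes in 7 of 19, m6A writers, erasers and readers in 7 of 20, genes of the integrated stress response or with upstream open reading frames in 8 of 23 and ribosomal protein genes in 5 of 15. Of 20 markers of other cell types, 3 had a peak and none of these 3 had a 5′ UTR peak.

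In the integrated stress response, translation of a few mRNAs is controlled through upstream open reading frames in the leader. Genes of this response or with such reading frames had 5′ UTR peaks mostly in control. Of the 8 with one, 6 had it in the control list only, 1 in the DF2 siRNA list only and 1 in both, where all genes with a 5′ UTR peak gave 28.4%, 23.8% and 47.8%. ATF4, the transcription factor at the centre of this response, had a 200 nt 5′ UTR only peak with 14.1 as fold enrichment and 863 as score in the control list, and none in the DF2 siRNA list, where the gene had 1 peak of another label. Of the other genes with one in control only, AMD1 had a higher value and 4 had lower ones.

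DDIT3 (CHOP) had 12.8 in the control list and CEBPG had 12.2, both over 200 nt. SLC7A11, the cystine transporter, had 11.1 in the control list, and ATF5, itself controlled by upstream open reading frames, had 9.61. AMD1, an enzyme of polyamine synthesis, had 22.3 over 400 nt in the control list and no peak of any label in the DF2 siRNA list. None of these 6 was met by a DF2 siRNA peak. Their deposited −log10 values were 1.95 for ATF5 and 2.12 to 4.65 for the others. TRIB3 was found in both, with 16.1 in the DF2 siRNA list and 9.68 in control over 400 nt. PPP1R15A (GADD34), a phosphatase subunit that ends the response, had a 5′ UTR plus coding peak with 25 in the DF2 siRNA list, which a control peak of another label met.

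Of 11 cell cycle regulators, 6 had a 5′ UTR peak in the DF2 siRNA list only, 1 in the control list only and 4 in both, against 23.8%, 28.4% and 47.8% of all genes with a 5′ UTR peak. PLK4, the kinase of centriole duplication, had 18.9 over 400 nt in the DF2 siRNA list, and CCND1 (cyclin D1) had 15 over 200 nt. CDKN1A (p21), an inhibitor of cyclin-dependent kinases, had 12.8 with a score of 457 in the DF2 siRNA list and no control peak of any label. CCNE1 (6.09), CDKN2C (5.56) and PLK1 (5.21) were lower, and of the 6 only CDKN2C was met by a control peak. The deposited −log10 values of CDKN1A (1.60) and PLK1 (1.33) were under 2, and the other members of the 6 had 2.60 to 4.22. CDKN1B (p27) had 10.6 in the control list only. WEE1, a kinase that holds back mitosis, was found in both lists with 60.7 in the DF2 siRNA list and 20.4 in control. Stress response and cell cycle lists hold few genes, and whether they differ was not tested.

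Of 11 decay factors, 7 had a 5′ UTR peak in both lists, against 47.8% of all genes with one. TOB1 had 64.6 in the DF2 siRNA list and 88.0 in control, and UPF2, of nonsense-mediated decay, had 34.1 in the DF2 siRNA list and 91.4 in control. DDX6, a helicase of translational repression and decapping, had the same 200 nt 5′ UTR only peak in both lists, with 16.9 in the DF2 siRNA list and 62.7 in control, beginning 15 bp from the start printed above. SMG6, an endonuclease of nonsense-mediated decay, had 21 in the DF2 siRNA list and 56.7 in control. The CCR4-NOT subunits CNOT9 (10.8) and CNOT6 (10.1) had one in the DF2 siRNA list only, and CNOT2 (6.75) and DCP2, the decapping enzyme (53.5), in the control list only. The control peak of DCP2 was met by a DF2 siRNA peak of another label. Deposited −log10 values were 2.66 for CNOT9 and 3.01 for CNOT6 in the DF2 siRNA list, and 1.35 for CNOT2 and 21.7 for DCP2 in control.

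Of 7 genes of the m6A machinery, 4 had a 5′ UTR peak in both lists, 2 in the DF2 siRNA list only and 1 in control only. All genes with a 5′ UTR peak gave 47.8%, 23.8% and 28.4%, and whether these 7 differ from them was not tested. ALKBH5, a demethylase of m6A, had the highest value, 100 in the DF2 siRNA list and 62.4 in control over 600 nt of 5′ UTR and coding sequence. RBM15B, which guides the methyltransferase, had 22.6 in the DF2 siRNA list and 9.64 in control. IGF2BP3, a reader, had 19.3 in the DF2 siRNA list and 17.2 in control. METTL3 (13.9) and the reader YTHDF3 (13.5) had a 5′ UTR peak in the DF2 siRNA list only, and neither was met by a control peak. HNRNPA2B1, an RNA-binding protein (10.5), had one in control only, which no DF2 siRNA peak met.

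Among chromatin regulators 16 of 22 had a 5′ UTR peak in both lists, against 47.8% of all genes with one. ARID1A, a subunit of SWI/SNF, had 87.8 in the DF2 siRNA list and 29.4 in control. ARID2, a subunit of the related PBAF complex, had 46.4 in the DF2 siRNA list and 116 in control. EP300, a histone acetyltransferase, had 45.9 as a 5′ UTR only peak in the DF2 siRNA list and 86.9 as a 5′ UTR plus coding peak in the control list. KAT6B, of another acetyltransferase family, had 28.9 in the DF2 siRNA list and 74.7 in control.

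Immediate early and growth-related factors had one in both lists in 10 of 15 cases, and osteoblast and matrix genes in 7 of 8, against the same 47.8%. FOSB had 38.9 in the DF2 siRNA list and 30.8 in control, and FOSL2 had 32.0 in the DF2 siRNA list and 18.7 in control. DUSP1, a phosphatase of MAP kinases, had 30.3 in the DF2 siRNA list and 24.9 in control. FOSL1 had 29.1 in the DF2 siRNA list and 25.6 in control. Of osteoblast and matrix genes, chosen because U2OS comes from bone, BMP2 was found with 48.3 in the DF2 siRNA list and 38.0 in control and LOX, which cross-links collagen, with 16.7 in the DF2 siRNA list and 39.6 in control.

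Heat shock genes had a 5′ UTR peak in both lists in 5 of 7 cases and translation factors in 4 of 9. Over all genes with a 5′ UTR peak, 47.8% had it in both lists, 23.8% in the DF2 siRNA list only and 28.4% in the control list only. BAG3, a co-chaperone, had 11.6 in the DF2 siRNA list and 28.3 in control, the collagen chaperone SERPINH1 had 20.3 in the DF2 siRNA list and 17.4 in control, and DNAJB1 had 18.2 in the DF2 siRNA list and 11.9 in control. STIP1, which links HSP70 to HSP90, had 11.4 in the DF2 siRNA list and 15.6 in control. EIF5B, which joins the ribosomal subunits, had 18.0 in the DF2 siRNA list and 39.6 in control, and EEF1D had 33.5 in the DF2 siRNA list and 33.9 in control. EIF3B (14.5) was found in the DF2 siRNA list only and EIF4E2 (21) in the control list only. Of 5 ribosomal protein genes none exceeded 10.3, with RPL7 at 8.51 in the DF2 siRNA list and 8.07 in control, and RPL6 (10.3), RPL30 (6.44) and RPL22 (4.83) in the control list only. Deposited −log10 values in control were 1.41 for RPL6, 2.63 for RPL30 and 1.52 for RPL22.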

How the data were processed

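m6A immunoprecipitates and inputs of U2OS cells were sequenced, and the authors deposited 1 peak list per condition. The submitters' processing notes name HISAT2 and the build hg38. Versions, the peak-calling tool and the annotation are not stated in the sources used here, and depth is unknown. The authors' fold enrichment is a deposited ratio per peak. Per the file headers, the −log10 values belong to an FDR for DF2 siRNA peaks and to a p-value for control peaks. The score, as deposited, holds whole numbers of unstated meaning. These values served only to describe and rank peaks within a list, and values of both lists are given side by side without a ratio.

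On the minus strand the deposited block sizes run in transcript order and the block starts in genome order, so the sizes were reversed. Of 10577 genes, 8540 matched RefSeq (GRCh38.p14) by symbol, 645 by an older name and 1392 not at all. Starts came from RefSeq, and the first base of its transcripts was taken as the first transcribed base. The members, gene lists and naming rule were chosen with earlier results of these data known. Named were, per class and list, the 8 highest genes by fold enrichment and the 5 highest without a counterpart, then genes with 3 or more 5′ UTR peaks, the 5 highest scores per list, and up to 4 genes per gene list. Some genes of these lists are not reported here. Sequences came from the highest peaks found in both lists, with chromosome 8 left out, and the limit of 50 bp to a start was added after the values were seen. Other genes of the stress response, cell cycle, decay, m6A, translation and ribosomal lists were named, after their values were seen, to complete small counts. Alternatives were stricter limits, equal list lengths, a reciprocal overlap, strand ignored, narrow peaks, partners of the same kind, merged peaks and other sets of starts. The overlap and interval routines were tested on simulated data. The tools were Python 3.11.15, scipy 1.17.1, numpy 2.4.6, pandas 2.3.3 and, for figures, matplotlib 3.10.9.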

Additional observations from a re-analysis of the deposited data

How the results depend on the processing

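No paired analysis was possible because each peak list covers both immunoprecipitates of a condition and gives no value per library, and leaving out a library was not possible for the same reason. Of 88 alternatives, 46 moved a value beyond its interval or by over 1.5 times and 3 reversed one whose interval excluded 0. The overlap of 5′ UTR peaks of the DF2 siRNA list, 72.8%, was 65.6% with a reciprocal overlap of 50%, 66.8% in the upper 50% by fold enrichment, 70.6% at a −log10 value of at least 3, 60.5% for peaks of at most 400 nt, 65.8% with a 5′ UTR partner required, 66.0% with lists of equal length and 49.4% for peaks of exactly 200 nt. That of the control list, 68.0%, was 61.0%, 70.2%, 55.2%, 61.2%, 80.4% and 46.6% under the same settings other than the −log10 limit. With lists of equal length the control list is cut to its highest peaks, so the order of the lists turned.

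The 3 reversals concern 5′ UTR peaks minus all other peaks in the control list, -4.52 points, which became 2 as the mean within quintiles of score, 18.6 at 200 nt and 12.5 at no more than 400 nt for both kinds of peak. It was -1.31 in the upper 50%, -2.29 at the −log10 limit and -1.08 at equal length, each with an interval that includes 0. The DF2 siRNA value of -17.6 points became -13.4 with a reciprocal overlap, -21.0 in the upper 50%, -20.1 at the −log10 limit, -21.3 at equal length, -14.3 within quintiles and -14.9 at 200 nt.

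The difference between the classes, 5′ UTR only minus 5′ UTR plus coding, kept its sign under these alternatives, but its interval came to include 0 in the DF2 siRNA list at no more than 400 nt (-9.38 to 1.01) and at 200 nt (-9.44 to 6.47). Within single widths of the DF2 siRNA list it turned at exactly 400 nt (74.3% against 70.0%) and not at 600 nt (78.2% against 89.3%). By score it was 6.10 points (-4.62 to 10.2) in quintile 5 of the DF2 siRNA list and 0.211 (-7.13 to 7.69) in control quintile 2. It was below 0 in the other quintiles. In the DF2 siRNA list it was -4.22 points at no more than 400 nt, -8.93 with a 5′ UTR partner, -20.9 at equal length, -7.10 as the mean within quintiles of score and -1.49 at 200 nt. In the control list it was -18.5 in the upper 50%, -16, -17.7, -11.6, -5.59 and -10.9 under these settings. The quintile, 200 nt and start-set alternatives, and all those for the difference from other peaks, were chosen after seeing the data. Members numbered 778 in the DF2 siRNA list and 718 in control in the upper 50%, and 1215 and 1267 at the −log10 limit. The share of 5′ UTR only peaks among them, 44.7% and 48.9%, was then 24.3% and 27.0%, and 35.1% and 38.7%, and 40.8% in the control list at equal length.

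The excess of A as first base over starts in no peak, 8.70 points in the DF2 siRNA list and 11.6 in control, was 12.4 and 15.4 in genes with 1 start, and 5 points in the DF2 siRNA list in genes that had starts of both kinds. By gene, the classes differed in A by -3.11 points in the DF2 siRNA list and -2.91 in control, and for starts within 50 bp of the peak by -7.04 in the DF2 siRNA list and 2.17 in control, all with intervals that include 0. The causes of these shifts were not tested.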

Other observations

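The share of peaks that were 5′ UTR peaks varied between chromosomes and was highest on chromosome X, with 24.4% of 324 peaks in the DF2 siRNA list (interval 19.8 to 29.4%) and 21.3% in control, where the lists as a whole had 16.9% and 15.2%. Chromosome X was singled out after all values were seen.

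Peaks on the opposite strand of the same list overlapped 3.51% of 5′ UTR only, 2.76% of 5′ UTR plus coding and 2.07% of other peaks in the DF2 siRNA list. In the control list they overlapped 7.01%, 3.84% and 2.73%. The sources used here do not say whether strand was used in counting.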
